A study of Mus musculus with 12 samples.

Results

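The genes described here are the Akt kinases and the subunits of phosphoinositide 3-kinase (PI3K) that were measured in mouse hippocampus. The rule took every measured gene whose symbol is Akt with a single digit or starts with Pik3c or Pik3r, which gave 9 of the 770 genes of the panel. They are Akt1 and Akt2, the catalytic subunit genes Pik3ca, Pik3cb, Pik3cd and Pik3cg, and the regulatory subunit genes Pik3r1, Pik3r2 and Pik3r5. Transcripts were measured with the NanoString nCounter assay, which hybridises a barcoded probe to each RNA and counts the barcodes by imaging, with no amplification step. The 12 mice formed 4 groups of 3, namely mtOGG1 females, control females, mtOGG1 males and control males, all 13 months old on a C57BL6/J background, group housed and fed freely. Mice labelled mtOGG1 express, by the title of the series, the DNA repair enzyme OGG1 in mitochondria. The promoter that drives the enzyme and the cells that make it are not stated in the labels.

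PI3K phosphorylates a membrane lipid after receptors for growth factors, insulin or chemokines are engaged, and the lipid product draws Akt to the membrane, where Akt is phosphorylated and becomes active. The alpha, beta and delta catalytic subunits (Pik3ca, Pik3cb, Pik3cd) pair with regulatory subunits encoded by Pik3r1 and Pik3r2, whereas the gamma subunit (Pik3cg) pairs with regulators such as the product of Pik3r5 and answers to G protein-coupled receptors. The delta and gamma subunits are best known from leukocytes, and in the hippocampus the pathway carries survival and plasticity signals such as those of BDNF.

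Levels are given as normalized counts as the authors deposited them, with no value below a floor of 20, and each gene was read by its own probe, so that levels are compared between mice and not between genes. The whole counts behind the values above this floor summed to between 281838 and 418467 per mouse, and no negative control exceeded 14 counts. Among the 9 genes, 7 exceeded the floor in all 12 mice, Pik3cg did so in 10 and Pik3r5 in none. Tissue markers differed between the mice: Slc17a6, the vesicular glutamate transporter of thalamic and other subcortical neurons, ranged from 403 to 1597 in mtOGG1 mice and from 195 to 1208 in control mice, and the choroid plexus gene Ttr from 46.8 to 1525 in mtOGG1 mice and from 20 to 1510 in control mice. Of 8 lymphocyte markers, 7 (among them Cd3d, Cd3e, Cd3g, Cd8a, Ms4a1 and Blk) stood at the floor in every mouse. The remaining marker, Blnk, ranged from 47.1 to 117 in mtOGG1 mice and from 79.3 to 136 in control mice. None of the 9 neuron markers stood at the floor in all mice. Ogg1 itself ranged from 32.9 to 55.7 in mtOGG1 mice and from 36.1 to 46.9 in control mice, and whether its probe reads the transgene is not stated.

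The promoters of Akt2 and Pik3r2 are shown because these transcripts varied together over the mice, as described further down. Other pairs of members also did, and genes outside the members were more like Akt2 than Pik3r2 was. Each window runs from 250 bases before to 50 bases after the most upstream start listed by RefSeq (GRCm38.p6), written 5′ to 3′ on the strand of the gene. Capitals mark the GC box GGGCGG or its reverse complement CCGCCC.
Akt2, chr7:27591302-27591601, plus strand: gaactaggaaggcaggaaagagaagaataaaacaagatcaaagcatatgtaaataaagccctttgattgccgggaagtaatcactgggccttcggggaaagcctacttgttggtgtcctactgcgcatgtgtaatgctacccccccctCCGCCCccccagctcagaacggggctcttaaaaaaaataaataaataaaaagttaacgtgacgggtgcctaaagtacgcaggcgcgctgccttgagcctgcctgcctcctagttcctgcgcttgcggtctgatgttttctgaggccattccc
Pik3r2, chr8:70776663-70776962, minus strand: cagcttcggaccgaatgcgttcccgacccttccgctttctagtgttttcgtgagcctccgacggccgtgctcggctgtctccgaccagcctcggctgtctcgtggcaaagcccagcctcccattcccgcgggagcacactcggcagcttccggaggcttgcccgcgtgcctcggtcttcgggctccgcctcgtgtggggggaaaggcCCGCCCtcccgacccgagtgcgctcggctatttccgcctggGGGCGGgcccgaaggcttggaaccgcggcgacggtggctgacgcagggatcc
The Akt2 window held 1 GC box at a GC content of 50%, and the Pik3r2 window 2 at 69.3%. All 9 genes had promoters in the RefSeq table. Searched on both strands, a GC box stood in the most upstream window of 7 of the 9 genes, against 35.7% of all 32851 promoter windows of the same 300 bases. The FoxO motif GTAAACA, named for transcription factors that Akt keeps out of the nucleus, stood in the upstream window of 1 gene, Akt1, and in 3.65% of all windows. None of the 9 upstream windows held TATAAA, which 13.6% of all windows held, or the E-box CACGTG, which 7.15% held. The shares of all windows count every listed start, whereas the 9 genes are counted at their most upstream start, so these are unlike units. Over all listed starts the 9 genes had 17 windows. At their other starts, the Akt1 window held 5 GC boxes and a Pik3cd window 3. The remaining Pik3cd window and the other windows of Akt2, Pik3cg and Pik3r1 held none. The other Pik3r1 window held TATAAA and the other Pik3cg window GTAAACA. A match or its absence describes the letters of these windows alone.

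The first comparison set mtOGG1 mice of both sexes against controls of both sexes, which addresses whether the transcript levels go with the genotype. None of the 8 genes tested passed an adjusted p of 0.05 (limma over 608 genes), where 8 of all 608 genes, or 1.32%, did. Akt2 lay lowest, and Akt1, its close relative, lay on the other side of 0. At an unadjusted p of 0.05 the genes below it were Akt2 and Pik3ca, 2 of 8, where 71 of 608 genes, or 11.7%, lay below it. The log2 fold changes of the 8 genes ran from -0.34 to 0.10, with a median of -0.08 beside -0.00860 over all genes tested, and 6 of the 8 were below 0 beside 52.5% of all genes.

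**Figure D1:**
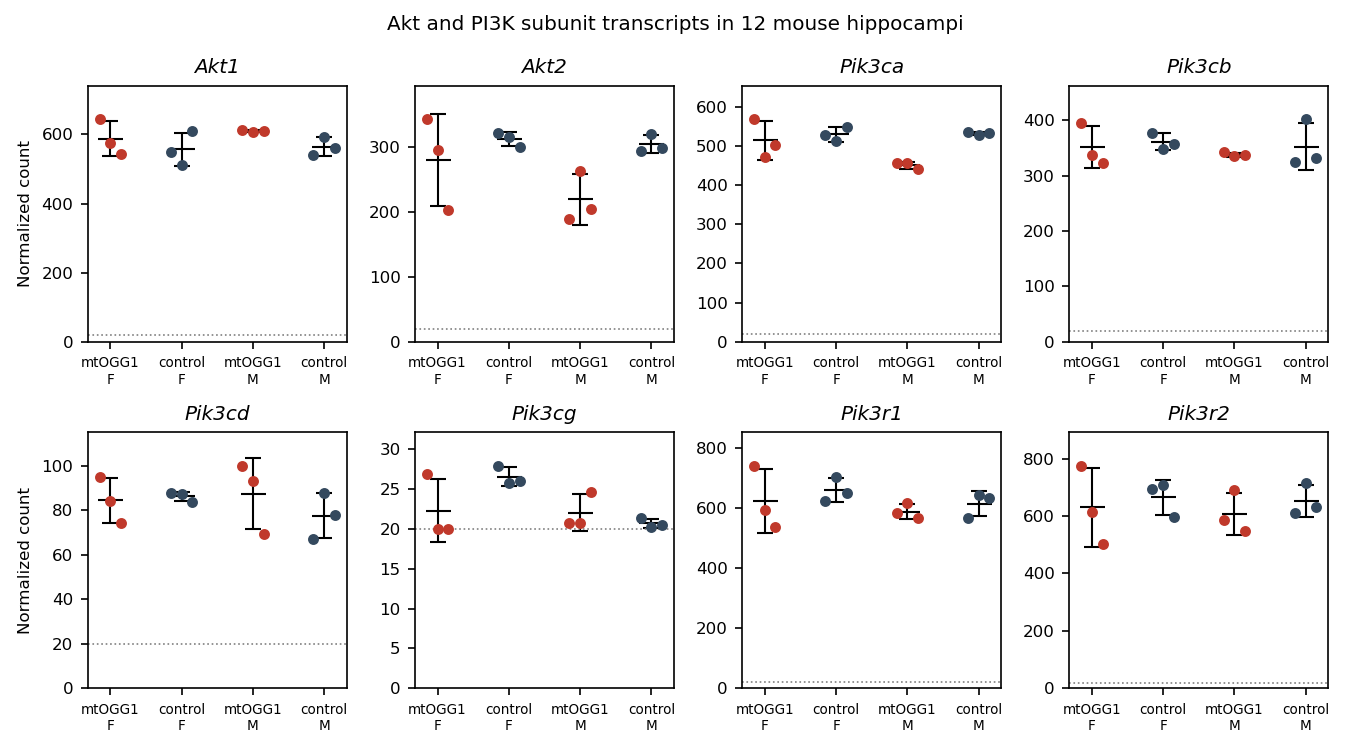
Normalized counts of 8 transcripts in each mouse (points), with the group mean and SD (bars), for mtOGG1 females, control females, mtOGG1 males and control males (n = 3 each); the dotted line is the floor of 20. Akt2 lies between 189 and 263 in mtOGG1 males and between 293 and 319 in control males, while Pik3cg lies at or just above the floor.

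Akt2 encodes the Akt kinase best known for insulin signalling. It was read at 342, 295 and 203 normalized counts in mtOGG1 females, against 321, 314 and 299.8 in control females. In males it was read at 189, 263 and 205 in mtOGG1 mice, against 293, 319 and 298 in controls. The male groups did not overlap and the female groups did, with the highest Akt2 value of all mice in mtOGG1 female 1. Of the 6 mtOGG1 mice, 5 had less Akt2 than every control of their sex. This was also so for Pik3ca, and over all genes at least 5 of 6 mice lay so in 26 of 608, or 4.28%. The cut of 5 is the count seen in Akt2 and Pik3ca themselves, and only the lower direction was counted. These shares are therefore given without a test. In Pik3ca, too, the remaining mouse, mtOGG1 female 1, was the highest of all mice. Akt2 averaged 249 ± 61.0 in mtOGG1 mice and 307 ± 12.0 in control mice (SD, n = 6 each), or -0.34 as a log2 ratio (limma, standard error 0.12, 95% interval -0.59 to -0.08, adjusted p = 0.315). The spread within groups was 15.8% of the mean, where the counts alone would give 6.04%. With sample weights estimated gene by gene, the value was -0.34 and passed (limma, adjusted p = 0.0464), as did 29 of all 608 genes, or 4.77%, under that setting.

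The 3 mice with the least Akt2 were the 3 with the most Slc17a6. These were mtOGG1 male 1 with 189 counts of Akt2 and 1597 of Slc17a6, mtOGG1 female 3 with 203 and 1374, and mtOGG1 male 3 with 205 and 1230. Control female 3, next in Slc17a6 with 1208 counts, had 299.8 of Akt2. This was the lowest of the control females, beside 314 and 321, and lay within the range of the control males, 293 to 319. With Slc17a6 as a covariate the log2 fold change of Akt2 was -0.20 over both sexes (limma, adjusted p = 0.824), and with Ttr it was -0.29 (limma, adjusted p = 0.462). Without mtOGG1 female 3 it was -0.23 (limma, adjusted p = 0.576). In tissue RNA, fewer cells that hold a transcript and less of it per cell cannot be told apart.

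**Figure D2:**
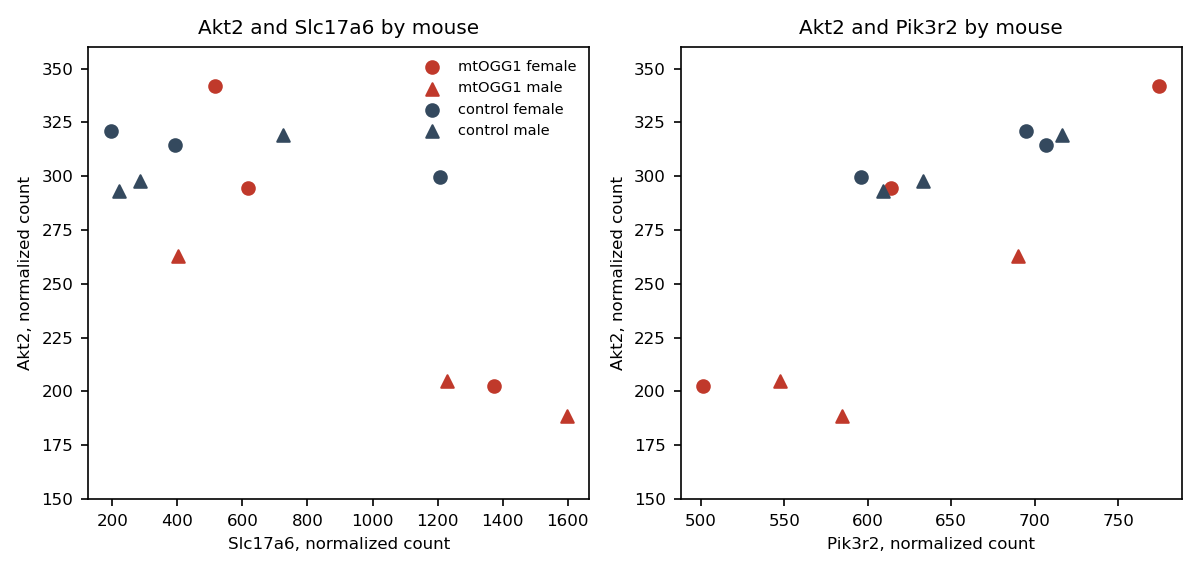
Akt2 in each mouse against Slc17a6 (left) and against Pik3r2 (right), all in normalized counts, with mtOGG1 mice in red and control mice in dark blue, females as circles and males as triangles. The 3 mice lowest in Akt2, at 189, 203 and 205, are mtOGG1 mice and lie at the right end of the Slc17a6 axis, and they are also the 3 lowest in Pik3r2, at 584, 502 and 547.

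Akt1 encodes the most broadly expressed Akt kinase, a regulator of growth and survival. It was read at 644, 575 and 544 in mtOGG1 females, against 549, 513 and 609 in control females, and these groups overlapped. In males it was read at 612, 606 and 611 in mtOGG1 mice, against 539, 594 and 559 in controls, without overlap. Over both sexes the log2 fold change was 0.10 (limma, 95% interval -0.05 to 0.24, adjusted p = 0.625). Within a mouse, Akt2 stood at 0.373 to 0.531 of Akt1 in mtOGG1 females, against 0.493 to 0.613 in control females. In males this ratio was 0.308 to 0.434 in mtOGG1 mice, against 0.532 to 0.543 in controls. The ratio does not depend on the scaling of a sample, and it was chosen after the values of both genes were seen, so it is given without a test. It was lower in every mtOGG1 male than in every control mouse of either sex, and so it was in mtOGG1 female 3. Against control males this had to be so, since every mtOGG1 male had more Akt1 and less Akt2 than every control male. The separation of the ratio in males thus adds nothing to those of the single genes.

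Pik3ca encodes the alpha catalytic subunit, which answers mainly to growth factor receptors. It was read at 567.5, 471 and 503 in mtOGG1 females, against 528, 512 and 548 in control females. In males it was read at 455, 457 and 440.4 in mtOGG1 mice, against 536, 526.5 and 532 in controls. The male groups were each narrow and did not overlap, whereas the mtOGG1 females spanned the whole range of the control females. The log2 fold change over both sexes was -0.14 (limma, 95% interval -0.28 to -0.00259, adjusted p = 0.415).

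Pik3cb, the beta catalytic subunit, was read at 396, 338 and 323 in mtOGG1 females, against 378, 348 and 357 in control females. In males it was read at 342, 335 and 337 in mtOGG1 mice, against 325, 402 and 331 in controls. The groups overlapped in both sexes, and the log2 fold change over both was -0.05 (limma, 95% interval -0.22 to 0.12, adjusted p = 0.875).

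The leukocyte-associated subunits were read at lower counts, with less precision. Pik3cd, the delta catalytic subunit, stood at 94.8, 84.2 and 74.5 in mtOGG1 females, against 87.5, 87.2 and 83.7 in control females. In males it stood at 99.9, 92.9 and 69.4 in mtOGG1 mice, against 67.1, 87.6 and 77.9 in controls. The groups overlapped in both sexes, and the log2 fold change over both was 0.06 (limma, 95% interval -0.19 to 0.31, adjusted p = 0.885). Counting alone gives Pik3cd a spread of 10.97% of its mean, beside the 12.8% seen within groups. Microglia, the resident macrophages of the brain, were read through 10 markers, none of them at the floor in all mice, with summed levels from 2226 to 2875 in mtOGG1 mice and from 2011 to 2739 in control mice.

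Pik3cg, the gamma catalytic subunit, stood at 26.9 in 1 mtOGG1 female and at the floor in the other two, against 27.9, 25.8 and 26.0 in control females. In males it stood at 20.7, 20.8 and 24.7 in mtOGG1 mice, against 21.4, 20.3 and 20.5 in controls. Its values above the floor rest on 21 to 27 counts, with a counting spread of 20.8%, and the floor hides any lower level. The log2 fold change over both sexes was -0.09 (limma, 95% interval -0.30 to 0.13, adjusted p = 0.790). Pik3r5, which encodes a regulatory partner of the gamma subunit, was at the floor of 20 in all 12 mice and was not tested.

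The regulatory subunits hold the catalytic subunit stable and inhibited until a receptor is engaged. Pik3r1, which encodes the alpha regulatory subunit, was read at 742, 595 and 536 in mtOGG1 females, against 625.4, 705 and 653 in control females. In males it was read at 585, 617 and 566 in mtOGG1 mice, against 567.6, 645 and 634 in controls. The groups overlapped in both sexes, and the log2 fold change over both was -0.08 (limma, 95% interval -0.25 to 0.10, adjusted p = 0.761). Pik3r2, the beta regulatory subunit, was read at 775, 614 and 502 in mtOGG1 females, against 695, 707 and 596 in control females. In males it was read at 584, 690.1 and 547 in mtOGG1 mice, against 609, 716 and 633 in controls. Both its highest and its lowest value were in mtOGG1 females, and the log2 fold change over both sexes was -0.10 (limma, 95% interval -0.32 to 0.12, adjusted p = 0.740). With Slc17a6 as a covariate the sign of the Pik3r2 value turned, to 0.0041. The spread within groups was 9.88% of the mean for Pik3r1 and 13.97% for Pik3r2, where counting alone would give 4.03% and 3.98%.

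The second comparison was made within females, where no gene of the panel passed the test (0% of 608, with 18 genes, or 2.96%, below an unadjusted p of 0.05), and none of the 8 was below an unadjusted p of 0.05. Their log2 fold changes ran from -0.26 for Pik3cg to 0.08 for Akt1, with a median of -0.07 beside -0.00536 over all genes. No member separated the female groups, where 5.26% of all genes did (1.81% higher in mtOGG1 females and 3.45% lower). The Akt2 value in females was -0.19 (limma, 95% interval -0.55 to 0.17, adjusted p = 1), and it was 0.03 without mtOGG1 female 3.

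Within males, the third comparison, 6 of 608 genes, or 0.987%, passed and none of the 8 members did. The smallest p among them belonged to Akt2, at 219 ± 39.2 in mtOGG1 males and 303 ± 13.9 in control males (SD, n = 3 each), or -0.48 as a log2 ratio (limma, 95% interval -0.84 to -0.12, adjusted p = 0.189). Pik3ca followed, at 451 ± 9.05 in mtOGG1 males and 532 ± 4.82 in control males (SD, n = 3 each), or -0.24 as a log2 ratio (limma, 95% interval -0.43 to -0.04, adjusted p = 0.243). The male groups did not overlap for 3 of the 8 genes, and for 17.8% of all genes tested. Akt1 was higher in every mtOGG1 male, as were 5.76% of all genes, and Akt2 and Pik3ca were lower, as were 12.0% of all genes. Akt1 averaged 609.7 ± 3.16 in mtOGG1 males and 564 ± 27.6 in control males (SD, n = 3 each), or 0.11 as a log2 ratio (limma, 95% interval -0.10 to 0.32, adjusted p = 0.664). The other values ran from -0.11 for Pik3r2 to 0.16 for Pik3cd. With sample weights estimated gene by gene, Akt2 (log2 fold change -0.55, limma, adjusted p = 0.00988) and Pik3ca (log2 fold change -0.24, limma, adjusted p = 0.0392) passed in males, as did 74 of all 608 genes, or 12.2%. With Slc17a6 as a covariate the Akt2 value in males was -0.30 (limma, adjusted p = 0.719).

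**Figure D3:**
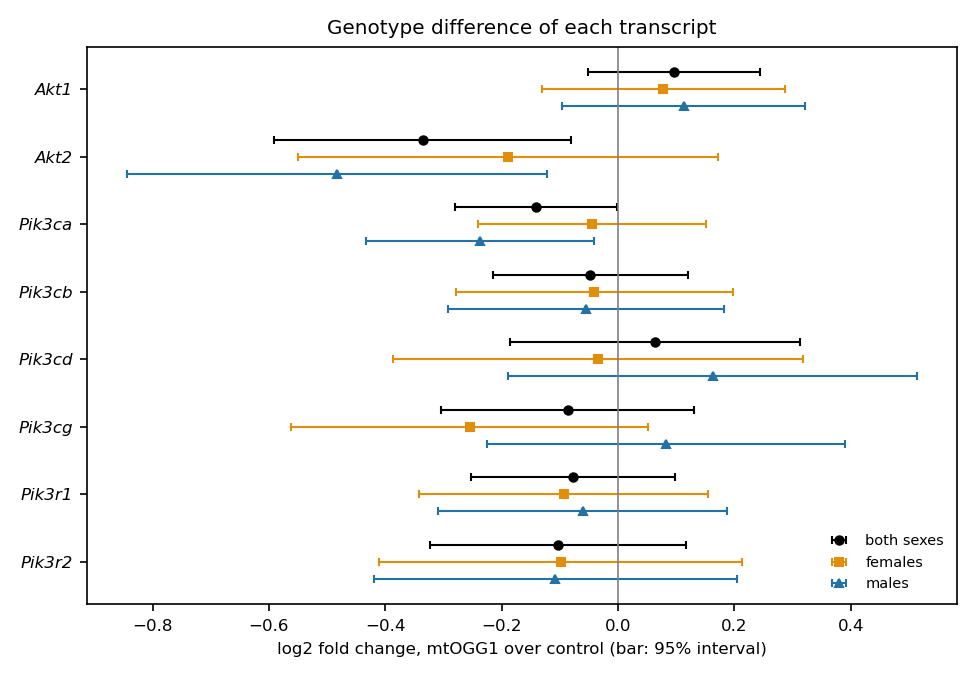
Log2 fold change of each transcript, mtOGG1 over control, with its 95% interval from limma, over both sexes (circles, black), in females (squares, orange) and in males (triangles, blue). The male interval of Akt2 runs from -0.84 to -0.12 and that of Pik3ca from -0.43 to -0.04, before adjustment for the 608 genes tested.

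An interaction term set the female genotype difference against the male one, and in it none of the 8 genes passed and 0% of all 608 did, with 29 genes (4.77%) below an unadjusted p of 0.05. The female difference of Akt2 exceeded the male difference by 0.29 on the log2 scale (limma, 95% interval -0.22 to 0.81, adjusted p = 0.988), and that of Pik3ca by 0.19 (limma, 95% interval -0.09 to 0.47, adjusted p = 0.988). The largest size belonged to Pik3cg, at -0.34 (limma, adjusted p = 0.959), with both groups near the floor.

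Females set against males over both genotypes gave no passing member either, where 4 of 608 genes, or 0.658%, passed. Akt2 averaged 296 ± 48.5 in females and 261 ± 53.2 in males (SD, n = 6 each), or 0.19 as a log2 ratio, female over male (limma, adjusted p = 0.837). Of the 8 values 7 were above 0, as were 406 of all 608 genes, and none was below an unadjusted p of 0.05, where 6.41% of all genes were. Scaling on the positive controls moved every gene by -0.20 in this comparison, which left 64 of the 608 genes above 0 and none of the 8 members. Median centring and panel reference genes moved every gene by -0.033 and -0.032. They left 333 and 336 of the 608 genes above 0 and turned no member negative. The signs thus held under these scalings but not on positive controls, and each shift was the same for members and all other genes. Ordered by group mean, Akt2 ran from 219 in mtOGG1 males and 279.6 ± 70.7 in mtOGG1 females to 303 in control males and 312 ± 10.8 in control females (SD, n = 3 each), and the means of each neighbouring pair lay closer together than the larger of their SDs.

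Over the mice, most pairs of members varied in the same direction. For the 7 genes above the floor in all 12 mice, the median Pearson r of log2 values over 21 pairs was 0.52, beside 0.21 over all pairs of the 537 genes above the floor in all mice. Each mouse has a single scaling factor for all genes, and after median centring these medians were 0.44 and 0.06. The 537 genes were not matched to the members in level, and so not in counting precision. Pik3r1 and Pik3r2 had r = 0.85 (n = 12, permutation p = 0.00050, adjusted p = 0.0105 over 21 pairs) and Spearman's rho = 0.80 (permutation p = 0.00262, adjusted p = 0.0183), with r = 0.68 without the 2 mice farthest from the median of Pik3r1. Akt2 and Pik3r2 had r = 0.79 (n = 12, permutation p = 0.00127, adjusted p = 0.0133) and rho = 0.85 (permutation p = 0.00095, adjusted p = 0.0135), with r = 0.73 without the 2 mice farthest from the median of Akt2. As deviations from the 4 group means, r was 0.86 for the first pair and 0.90 for the second. Akt2 with Pik3r1 (r = 0.74), Akt2 with Pik3ca (r = 0.73) and Pik3cb with Pik3r2 (r = 0.72) each had a permutation adjusted p of 0.0357. As deviations from group means these were 0.76, 0.33 and 0.70. Akt1 and Akt2 had r = -0.14 (n = 12, permutation p = 0.667, adjusted p = 0.717), and their deviations from group means gave 0.47.

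Among the other 536 genes above the floor in all mice, those most like Akt2 over the 12 mice were Cx3cl1, a chemokine of neurons, at r = 0.97 and rho = 0.92, Grm3, a glutamate receptor, at r = 0.95 and rho = 0.94, and Stmn1, a microtubule regulator, at r = 0.94 and rho = 0.87. Cx3cl1 averaged 863 ± 209 in mtOGG1 mice and 1114 ± 41.1 in control mice (SD, n = 6 each), or -0.40 as a log2 ratio (limma, adjusted p = 0.146). Those most like Akt1 included Tada2b, a subunit of histone acetyltransferase complexes, at r = 0.91, and Pink1, a mitochondrial kinase, at r = 0.86. Tada2b is also one of the panel reference genes used for scaling. After median centring r with Akt1 was 0.82 for Tada2b and 0.72 for Pink1, whereas r of Cx3cl1 with Akt2 stayed at 0.97. These values describe likeness in these 12 mice, in each of which all genes share a scaling factor and a piece of tissue.

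The other genes of the pathway were taken from lists of 172 names, of which 66 were in the panel and 62 were tested. Over both sexes 1 of the 62 passed, lower, and none higher (0 with Slc17a6 or Ttr as a covariate or with no filter on low values), beside 1.32% of all 608 genes, with 33 above 0 and 29 below and a median log2 ratio of 0.00702. None passed in females or in males.

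**Figure D4:**
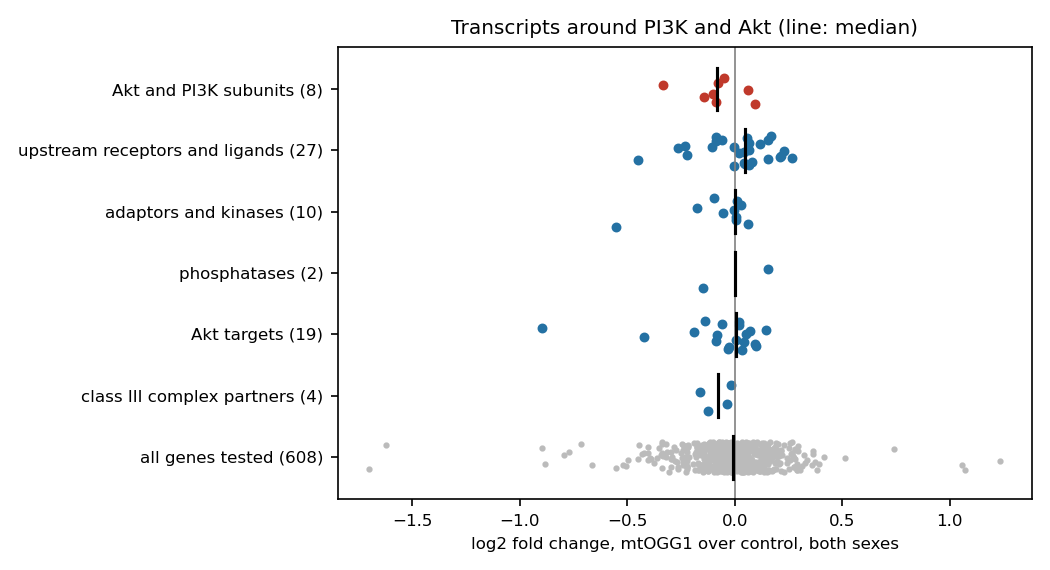
Log2 fold change over both sexes, mtOGG1 over control, of the 8 Akt and PI3K subunit genes (red), of tested genes of the pathway by role (blue) and of all 608 genes tested (grey); the black line is the median of each row. The medians lie at -0.08 for the subunits and between -0.08 and 0.05 for the other roles, and the isolated low point among the Akt targets is Cdkn1a at -0.90.

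Among 27 tested receptors and ligands upstream of PI3K, none passed and 17 were above 0. Bdnf, a growth factor of neurons, averaged 187 ± 49.1 in mtOGG1 mice and 253 ± 54.3 in control mice (SD, n = 6 each), or -0.45 as a log2 ratio (limma, adjusted p = 0.315). The next by p were Vegfa, a growth factor of vessels, at -0.26, Itgav, an integrin, at -0.22, and Mertk, a receptor for dying cells, at -0.23. Among 10 tested adaptors and kinases none passed. Blnk, an adaptor of B cells and myeloid cells, had -0.55 (limma, adjusted p = 0.315), the kinase Syk -0.17, the phosphatase Ptpn6 -0.10 and the phospholipase Plcg2 0.06.

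Inpp5d, the leukocyte lipid phosphatase SHIP, which acts on the lipid that PI3K makes, averaged 34.7 ± 4.99 in mtOGG1 mice and 31.5 ± 7.22 in control mice (SD, n = 6 each), or 0.16 as a log2 ratio (limma, adjusted p = 0.727). Of the genes that activate Akt or act in the mTOR complexes, only Tcl1 was in the panel, at the floor in all mice.

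Among 19 tested targets of Akt, direct or further down, 1 passed over both sexes, beside 1.32% of all 608 genes. Cdkn1a, the cell cycle inhibitor p21, whose protein Akt can phosphorylate and whose transcript p53 induces, fell to 95.2 ± 30.1 in mtOGG1 mice, against 172 ± 29.0 in control mice (SD, n = 6 each), or -0.90 as a log2 ratio (limma, adjusted p = 0.0231). Without the filter on low values its adjusted p was 0.163, and with Slc17a6 as a covariate the log2 ratio was -0.71 (limma, adjusted p = 0.137). Crem, a transcription factor of the cAMP response, had -0.42, the NF-kappaB pathway kinases Chuk -0.14 and Ikbkb -0.19, and 10 of the 19 were above 0. The 4 tested genes that join or regulate class III PI3K, which forms a lipid needed for autophagy, were all below 0 without passing. Atg14 was at -0.16, Becn1 at -0.12, Ambra1 at -0.04 and the kinase Ulk1 at -0.0177.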

How the data were processed

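Hippocampal total RNA of 12 mice was hybridised to an nCounter panel, per the labels' protocols. The values are normalized signal made by the authors with nCounter Advanced Analysis, per the series' design text. Tested on the values, each gene value above 20 was a whole count times 1 factor per sample (0.820 to 1.27), within 0.01 for 100% of values. Lower values stood at 20. The basis of these factors is not stated in the labels, and the floor left no complete count table for a count model. The members, though set by a rule on symbols, and the gene lists were chosen with earlier results of these data known.

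Values were taken as log2(value + 1), which understates the folds of low genes. The model, fitted with limma 3.58.1 (R 4.3.3), had 4 group means, a variance trend and a Benjamini-Hochberg adjustment over the 608 genes above 20 in at least 3 samples. Groups and replicate numbers came from the sample titles. The p-values measure only the spread between numbered samples, since the labels say no more of how these were taken. No 2 samples agreed within counting noise (chi-square over degrees of freedom at least 2.09). All members are named, with up to 4 genes of each pathway list (calls first, then smallest p) and the 3 genes most like each Akt gene, except a few that are not reported here. The fit was tested on simulated data. Correlations used 100000 permutations. Other settings were run for the pseudocount, the filter on low values, the scaling, the variance model, sample weights, tissue covariates, the replicate block and left-out mice. Figures were drawn with matplotlib 3.10.9.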

Additional observations from a re-analysis of the deposited data

Results flagged for a closer look

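Among the 16 sets of 6 mice of 1 genotype examined for the 8 genes, 1 held a mouse far from the others by Dixon's test, which chance gives in about 1 of 20 sets. Pik3cb in mtOGG1 female 1 stood at 395.51 normalized counts, above the other 5 mtOGG1 mice. The same mouse was also the highest of all 12 in Akt1, Akt2, Pik3ca, Pik3r1 and Pik3r2. The cause was not tested.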

How the results depend on the processing

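Of 1046 values of the 8 genes in the 5 comparisons under 28 other settings, 1000 kept their direction and their side of the threshold, 43 turned sign and 3 came to pass it. Those 3 came with sample weights estimated gene by gene, which called 1 member over both sexes and 2 in males, where there were 0. Same-numbered mice deviated together (r over 0.1) in 8 of 18 pairs, with r from -0.34 to 0.56. Mice of different numbers were not compared in this way, so whether same-numbered mice share more than the number was not tested. With the replicate block, Akt2 had -0.34 over both sexes (limma, adjusted p = 0.244) and -0.48 in males (limma, adjusted p = 0.166), and no member passed in any comparison. With males only, Akt2 had an adjusted p of 0.0707 (limma). With Slc17a6 as a covariate Pik3r2 turned to 0.0041 over both sexes, 0.031 in males and -0.054 in the interaction, and with Ttr to -0.063 in the interaction and -0.042 between the sexes. Scaled on panel reference genes, Pik3cb turned to 0.00047 in males and -0.015 in the interaction, and Pik3r2 to -0.019 there. Scaled on positive controls, the interaction turned to -0.061 for Pik3cb and -0.066 for Pik3r2, and with weights to -0.081 for Pik3cb. Each scaling adds 1 offset to all genes of a comparison, and between the sexes that on positive controls was -0.20 for every gene and turned 342 of all 608 genes negative. There Akt2 came to -0.0091, Pik3ca to -0.11, Pik3cb to -0.15, Pik3cd to -0.14, Pik3cg to -0.021, Pik3r1 to -0.11 and Pik3r2 to -0.16. Leaving out 1 mouse at a time, signs turned within these ranges. In females they ran from -0.35 to 0.026 for Akt2, -0.12 to 0.016 for Pik3ca, -0.13 to 0.018 for Pik3cb, -0.12 to 0.052 for Pik3cd, -0.22 to 0.0090 for Pik3r1 and -0.26 to 0.055 for Pik3r2, with the upper end reached without mtOGG1 female 3, or for Pik3ca without mtOGG1 female 2. Pik3cb ran from -0.091 to 0.00070 over both sexes and from -0.11 to 0.042 in males. In the interaction the ranges were -0.10 to 0.031 for Akt1, -0.083 to 0.073 for Pik3cb, -0.16 to 0.070 for Pik3r1 and -0.15 to 0.16 for Pik3r2, and between the sexes -0.018 to 0.11 for Pik3cd and -0.047 to 0.11 for Pik3r2. Akt2 ran from -0.42 to -0.23 over both sexes and from -0.62 to -0.38 in males. The count of all genes passing over both sexes (8) was 5 with a pseudocount of 5 or 20, with genes above the floor in all mice or with Ttr, 0 with no filter, 3 with a mean of at least 50, 29 with weights and 3 to 12 with 1 mouse left out (3 without mtOGG1 female 3 or control male 2, 4 without control female 1, control male 1 or control male 3, 5 without mtOGG1 female 2 or mtOGG1 male 3). In males (6) it was 0 with no filter, 12 with median centring or no variance trend, 13 on reference genes, 11 on positive controls or with robust variances, 74 with weights, 25 with males only 19 without mtOGG1 female 3, 14 without mtOGG1 male 2 and 10 without mtOGG1 female 1 or control female 2. Between the sexes (4) it was 2 with no filter or above the floor in all mice, 7 with weights and 2 without mtOGG1 female 1, mtOGG1 female 2 or control male 1, in females (0) 2 without control female 3, and in the interaction (0) 1 without control male 3. Among the 62 pathway genes (1, Cdkn1a) it was 0 with no filter or with Slc17a6 or Ttr as a covariate, 3 with weights and 0 to 2 with 1 mouse left out, 0 without mtOGG1 female 3, control female 1, control male 2 or control male 3 and 2 without mtOGG1 male 2, all added after the data were seen. The causes were not tested. The floor of 20 hides lower levels of Pik3cg, and 3 mice per group limit every value.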
